A study of Mus musculus with 24 samples.

Results

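Macrophages, monocytes and neutrophils are the phagocytes of the colon wall, and the transcripts of 43 genes that mark them or serve their functions were followed in mouse colon and colorectal tumours. The 43 genes were chosen as a list of symbols, and each was found once among the 55487 gene identifiers of the deposited tables. They were read in 4 role groups: 11 genes of tissue macrophages, 13 genes shared by macrophages, monocytes and neutrophils, 10 genes of recruited monocytes and activated phagocytes, and 9 genes of neutrophils, their granules and the growth factors of the lineage. The shared group is broad, and not each of its genes is found in all of these cells. Itgax, for instance, is a gene of macrophages and dendritic cells. Libraries came from C57BL/6 mice that lacked Axin1 in intestinal epithelial cells (KO) and from wild-type mice (WT). Axin1 encodes a scaffold protein of the beta-catenin destruction complex, which restrains Wnt signalling. The 8 groups were KO and WT colon without treatment, KO and WT colon at day 7 and at day 13 of a dextran sulfate sodium (DSS) experiment, and KO and WT colorectal tumours after azoxymethane and DSS (AOM/DSS), with 3 libraries each that the study calls biological replicates. DSS is a polymer given in drinking water that injures the colonic epithelium, and azoxymethane is a carcinogen. The gene was targeted in epithelial cells, so the phagocytes themselves were not targeted. The promoter of the recombinase, the deleted part of the gene and the days on which DSS was given are not stated in the sources used here.

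Resident macrophages of the colon descend largely from blood monocytes that mature in the wall, where they clear dying cells and microbes and are recognised by complement C1q, the CSF1 receptor and scavenger receptors. When the epithelium is injured, monocytes and neutrophils enter from the blood, sense microbial products through lectin, formyl peptide and TREM receptors, and are sustained by the growth factors G-CSF and GM-CSF. Most granule proteins of neutrophils are transcribed in the bone marrow, so a mature neutrophil in tissue carries the protein with little of its messenger RNA.

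Values are expected counts scaled to the library total after TMM normalisation (CPM), which corrects for RNA composition, unless TPM, which corrects for gene length and has no TMM scaling, is named. Depth was 15.65 to 28.07 M expected counts per library (median 23.6 M). Axin1 lay between 13.5 and 19.7 CPM in the 12 KO libraries and between 47.4 and 58.8 CPM in the 12 WT libraries, which fits the genotype labels. Differences were tested with edgeR's quasi-likelihood F test over all expressed genes, a gene was called when its Benjamini-Hochberg adjusted p was under 0.05, and adjusted p-values below come from edgeR except where DESeq2 is written. Fold changes are on the log2 scale and are given ± SE with 3 libraries per group. Markers of colonic epithelium summed to between 4199 and 13180 CPM in every library. Smooth muscle markers summed to between 1825 and 10400 CPM in colon and to between 111.8 and 245.6 CPM in tumours, so the share of muscle wall differed between the tissues. Keratins of squamous epithelium stood out in KO day 13 replicate 1 (1073 CPM summed), WT day 13 replicate 3 (4975 CPM) and KO tumour replicate 2 (601 CPM). The sex of the mice, read from Xist and Y-linked genes since the labels give none, was female in all KO and male in all WT libraries at day 13, male in all untreated KO and female in all WT libraries at day 7, and mixed in the other 4 groups. Bulk RNA cannot tell fewer cells of a type from less RNA per cell, and this holds for every value below.

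Per length, Lyz2, which encodes the lysozyme of macrophages and neutrophils, was the most abundant of the 43 genes, with a mean of 209.8 TPM over the 24 libraries. The counts of Lyz2 were not whole in 100% of the libraries, so reads were shared with other genes and its level is less certain. Cd177, a surface glycoprotein of neutrophils, had 150.1 TPM, Ltf, the iron-binding lactoferrin of secondary granules, 88.1 TPM, and Cd14, a co-receptor for bacterial lipopolysaccharide, 63.3 TPM. The complement subunit genes C1qa, C1qb and C1qc followed with 55.3, 45.5 and 43 TPM. At the other end, Elane, the elastase of primary granules, had 0 counts in all 24 libraries, which allows a level of up to 0.00528 CPM by a floor of 3 counts over all libraries. Mpo, the myeloperoxidase of the same granules, had 15 counts in all, and Camp, the cathelicidin of secondary granules, had 33. These genes of granule formation were too low to be tested, while Csf3r, the G-CSF receptor of mature neutrophils, reached 34.7 CPM in WT tumour replicate 3. The granule gene Ltf departed from the other granule genes, with 1792 CPM in WT day 13 replicate 3 and 0.356 CPM in WT untreated replicate 3.

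Of the 42 genes with any count, 20 had their highest mean in WT tumours, 13 in WT colon at day 13, 8 in KO tumours and 1 in untreated WT colon. The last was Cd163, the scavenger receptor for haemoglobin on resident macrophages. The tissue macrophage genes were highest in tumours for 10 of 11 genes, whereas the recruited genes had their highest mean in WT colon at day 13 for 6 of 10 and in WT tumours for 4 of 10. Of these 6 recruited genes, Clec4e, Acod1, Arg1, Fpr1 and Fpr2 had their highest library in WT day 13 replicate 3, which was rich in squamous keratins. Ly6c2 had it in WT day 13 replicate 1. Of the 33 genes with at least 1 count in every library, 20 had their lowest mean in KO colon at day 13, 6 in untreated WT colon, 5 in KO colon at day 7, and 1 each in untreated KO colon and KO tumours. KO day 13 replicate 1 was the lowest of all libraries for 20 of these 33 genes.

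**Figure D1:**
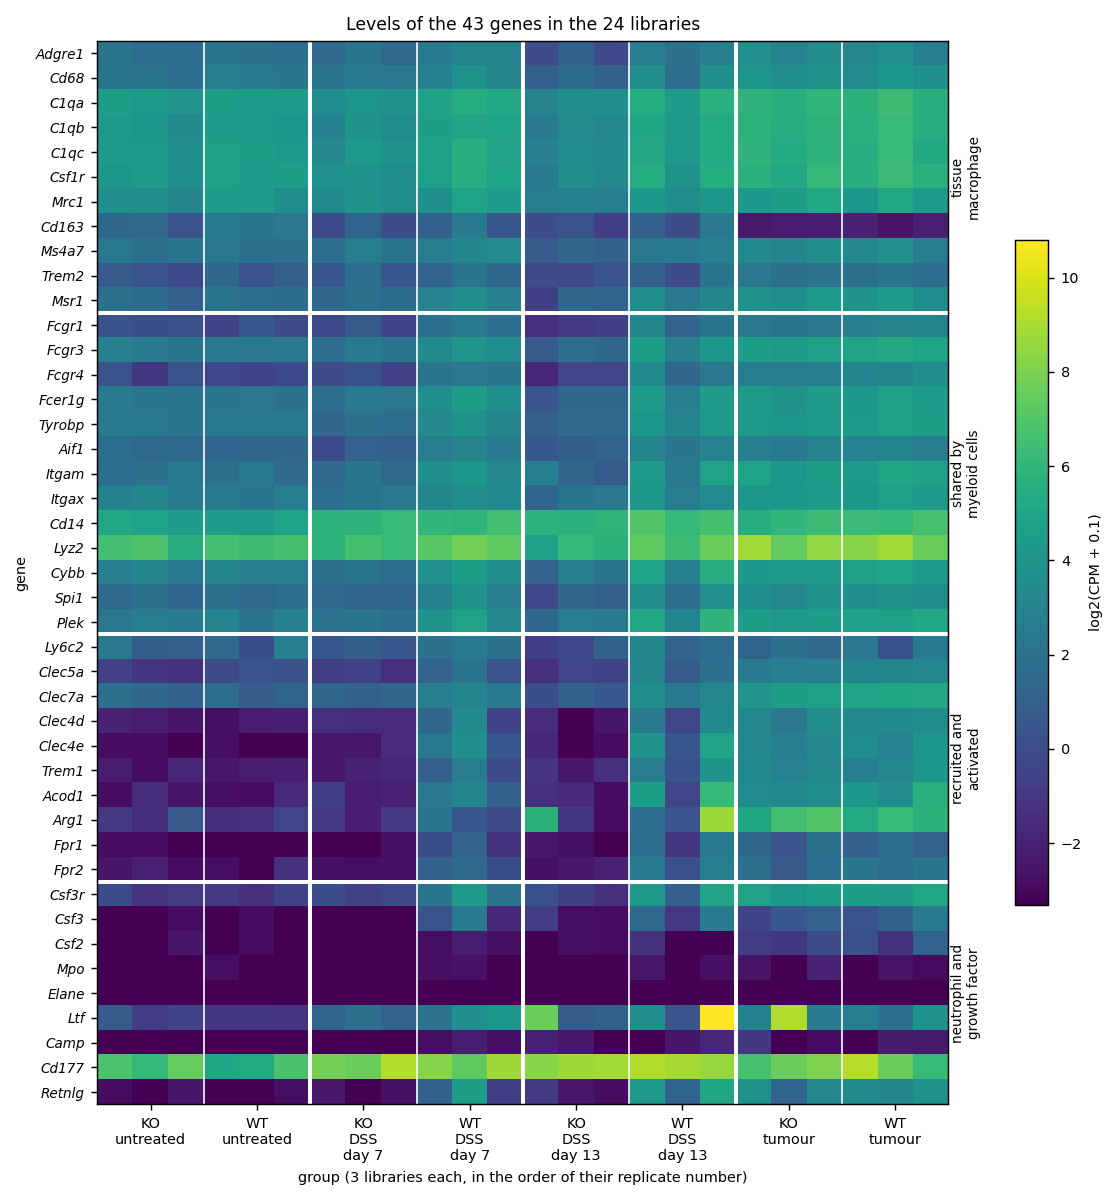
Heat map of the 43 genes (down the page, by role group) in the 24 libraries (across, by condition, KO left of WT), coloured by log2 of CPM plus 0.1. Dark colours are low levels and pale colours high ones. KO colon at day 13 is the darkest block for most tissue macrophage and shared genes, recruited genes such as Clec4e are near 0 in untreated colon of both genotypes, and Elane is at 0 throughout.

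The promoters of the genes were read for the core motif of PU.1, the transcription factor encoded by the member Spi1 that is needed for the myeloid lineage. RefSeq promoters (GRCm38.p6) were available for 34 of the 43 genes, and the 250 bases before each start were searched on both strands for GAGGAA. It occurred in 24 of the 34 genes (70.6%), against 25.9% of the 27025 genes in the table. By role it was found in 5 of 7 tissue macrophage genes, 6 of 10 shared genes, 8 of 9 recruited genes and 5 of 8 neutrophil and growth factor genes. Longer forms that contain it were rarer: GAGGAAGT was in 5 genes (14.7%, against 2.79% of all) and AGAGGAAGT in 3 (8.82%, against 0.94%). A C/EBP form, TTGCNNAA, was in 6 genes (17.6%, against 10.8%). A PU.1 and IRF composite and an NF-kB form were in 1 gene each (2.94%, against 2.68% and 1.65% of all). A match describes letters in the window and no binding was measured. The promoters of a gene of each of 3 role groups that the comparisons below turn on are shown 5′ to 3′ on the gene's strand up to the base before the RefSeq start, with GAGGAA or its reverse complement TTCCTC in capitals.
C1qb, tissue macrophage, chr4:136886201-136886450 (minus strand): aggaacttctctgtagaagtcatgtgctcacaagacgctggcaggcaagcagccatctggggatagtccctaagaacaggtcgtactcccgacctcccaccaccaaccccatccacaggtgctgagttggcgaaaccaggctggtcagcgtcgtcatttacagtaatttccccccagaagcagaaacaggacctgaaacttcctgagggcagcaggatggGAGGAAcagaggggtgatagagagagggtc
Fcgr1, shared, chr3:96293970-96294219 (minus strand): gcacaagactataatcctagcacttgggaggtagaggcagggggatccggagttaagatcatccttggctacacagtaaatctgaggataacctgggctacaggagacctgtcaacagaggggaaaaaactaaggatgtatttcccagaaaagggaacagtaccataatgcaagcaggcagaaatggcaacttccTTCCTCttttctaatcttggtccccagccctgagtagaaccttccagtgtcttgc
Clec4e, recruited, chr6:123289872-123290121 (minus strand): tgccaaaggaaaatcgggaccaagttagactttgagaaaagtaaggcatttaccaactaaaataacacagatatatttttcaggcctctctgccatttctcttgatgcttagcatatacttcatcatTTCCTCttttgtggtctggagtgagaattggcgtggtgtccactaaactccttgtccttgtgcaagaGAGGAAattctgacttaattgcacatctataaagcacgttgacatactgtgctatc
The nearest match ended 24 bases before the start in C1qb, 49 in Fcgr1 and 50 in Clec4e, which held 2 matches. C1qb lies beside C1qa and C1qc on chromosome 4, and Clec4e beside Clec4d, the gene of a partner lectin, on chromosome 6.

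In untreated colon KO and WT were compared to ask whether the missing Axin1 alters the phagocyte genes without injury. None of the 39 genes tested was called (0.011% of 18102 genes were), 1 reached p under 0.05 before adjustment, and DESeq2 also called 0. In 3 genes all KO libraries were below all WT libraries (8.84% of all genes) and in 2 above (9.06%). The median difference of the 39 genes was 0.02, against -0.01 for all genes. The neutrophil and growth factor genes had a median of 0.95, with 4 of 5 above 0, the recruited genes 0.2 and the shared genes 0.02. Tissue macrophage genes lay below 0 for 10 of 11, with a median of -0.39, among them Mrc1, the mannose receptor of resident macrophages. Mrc1 had 13.5, 13 and 8.41 CPM in KO, against 21.3, 22.1 and 12.8 CPM in WT (-0.71 ± 0.28, adjusted p = 0.74), and KO replicates 1 and 2 lay within the WT range. Clec5a, a lectin receptor that signals through the adaptor DAP12, had 0.566, 0.374 and 0.321 CPM in KO and 0.823, 1.19 and 1.02 CPM in WT, without overlap but without a call (-1.28 ± 0.60, adjusted p = 0.762). Cd177 was nominally higher in KO (112, 68.2 and 175 CPM) than in WT (31.5, 40.1 and 109 CPM), and the groups overlapped (0.95 ± 0.52, adjusted p = 0.784). Itgax, the CD11c integrin of macrophages and dendritic cells, had a difference of 0.38 ± 0.34 (adjusted p = 0.838).

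At day 7 of the DSS experiment, 38 of 39 genes had a log2 fold change below 0 in KO against WT colon, and none passed the adjusted threshold. The smallest adjusted p was 0.0647, and edgeR called 0.00552% of all genes. Before adjustment 33 genes reached p under 0.05, against 27% of all genes, and DESeq2 called 30, all lower, against 8.61% of all genes called lower by DESeq2. In 33 of 39 genes all KO libraries were below all WT libraries, against 13.9% of all genes. They were 7 of 11 tissue macrophage, 12 of 13 shared, 10 of 10 recruited and 4 of 5 neutrophil and growth factor genes. The median difference was -1.85, with -1.11 for tissue macrophage, -1.94 for shared, -4.1 for recruited and -3.49 for neutrophil and growth factor genes, and 0.05 for all genes.

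Among tissue macrophage genes at day 7, C1qa had 11.6, 17.9 and 15.2 CPM in KO colon, against 27.4, 43.2 and 34.1 CPM in WT colon (-1.19 ± 0.28, adjusted p = 0.0647). WT replicate 2 was the highest of the 6 libraries and the groups did not overlap. Of the shared genes, Aif1, the actin-binding protein IBA1, had 0.818, 2.09 and 1.93 CPM in KO and 6.01, 7.74 and 5.43 CPM in WT (-1.94 ± 0.32, adjusted p = 0.0647). Tyrobp, the adaptor DAP12 of many activating myeloid receptors, had 2.4, 3.62 and 3.24 CPM in KO and 9.86, 15 and 8.25 CPM in WT, again without overlap. Of the recruited genes, Clec4e, the lectin Mincle that senses mycobacterial glycolipids and dying cells, had 0.0962, 0.0852 and 0.242 CPM in KO and 5.07, 12.5 and 1.36 CPM in WT. Fpr2, a formyl peptide receptor, had 0.0481, 0.0426 and 0.0483 CPM in KO, from 3 counts in all, and 1.97, 2.81 and 0.940 CPM in WT. The WT level was 40.2 times the KO level, with a counting interval of 13.4 to 198. Of the 5 neutrophil and growth factor genes tested 4 were lower in KO without overlap, and Cd177 overlapped (0.19). Csf3r had 0.962, 0.596 and 0.773 CPM in KO and 4.3, 18.9 and 4.07 CPM in WT, and Retnlg, a resistin-like protein of neutrophils, had 0.0962, 0 and 0.0483 CPM in KO, from 3 counts, and 1.97, 23.5 and 0.522 CPM in WT, a ratio of 159.7 (counting interval 54.3 to 777). Csf3, which encodes G-CSF, had 0 counts in KO and 1.17, 5.31 and 0.209 CPM in WT, so that KO was at least 48.2-fold lower by a floor of 3 counts over the group. WT replicate 2 was the highest and replicate 3 the lowest WT library for Csf3, Csf3r and Retnlg.

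The call depended on single WT libraries, with 21 genes called without WT replicate 1 (4.99% of all genes) and 24 without WT replicate 3 (13.1% of all genes). Markers of all leukocytes summed to 24.9 to 37 CPM in KO and 64.7 to 224 CPM in WT, with 3 of 3 genes detected, T cell markers (5 of 5) to 2.13 to 2.61 CPM and 4.59 to 11.4 CPM, fibroblast markers (5 of 5) to 538 to 841 CPM and 886 to 2739 CPM, and smooth muscle markers (5 of 5) to 3173 to 3890.0 CPM and 3092 to 10400.0 CPM. Eosinophil markers were near 0, with Epx at 0 counts in KO. The part of these cells, and of the highest WT library in muscle and leukocyte markers (replicate 2), in the result was not tested. Without the male KO replicate 1 the 5 libraries left were all female, 0 genes were called, and the median difference was -1.64.

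At day 13 the phagocyte genes were lower in KO than in WT colon, and 30 of 39 passed the test, all lower (1.86% of all genes were called lower and 0.652% higher). The median difference was -2.53, against -0.02 for all genes. The called genes were 9 of 11 tissue macrophage genes (median -1.75), 11 of 13 shared genes (median -2.53), 8 of 10 recruited genes (median -5.14) and 2 of 5 neutrophil and growth factor genes (median -3.9). In 32 of 39 genes all KO libraries were below all WT libraries, against 12.3% of all genes.

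C1qa had 7.76, 13.4 and 12.8 CPM in KO and 43.7, 21.9 and 49.7 CPM in WT colon at day 13, with a log2 fold change of -1.75 ± 0.28 (adjusted p = 0.0107). C1qb fell by 1.83 ± 0.33 (adjusted p = 0.0152), with 5.33, 11.2 and 9.31 CPM in KO and 32.8, 20.2 and 39.3 CPM in WT. WT replicate 2 was the lowest WT library for both and still lay above every KO library. Adgre1, which encodes the macrophage antigen F4/80, had 0.921, 2.0 and 0.782 CPM in KO and 6.6, 3.85 and 6.52 CPM in WT (-2.18 ± 0.36, adjusted p = 0.0111). Csf1r, the receptor for the macrophage growth factor CSF1, had 5.48, 13.2 and 9.54 CPM in KO and 42.8, 15.3 and 42.5 CPM in WT (-1.82, adjusted p = 0.0205). Mrc1 changed least among the called macrophage genes (-1.24, adjusted p = 0.0338), and Msr1, a class A scavenger receptor, most (-2.26, adjusted p = 0.0231). Cd163 (-1.6, adjusted p = 0.206) and Trem2, a lipid-sensing receptor (-1.34, adjusted p = 0.209), were not called.

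The shared genes held the smallest adjusted p of the 43 genes. Tyrobp had 1.89, 2.73 and 3.01 CPM in KO and 17.6, 8.15 and 18.8 CPM in WT (-2.53 ± 0.32, adjusted p = 0.00748). Fcer1g, the common signalling chain of the Fc receptors, had 1.21, 2.59 and 2.46 CPM in KO and 22.3, 6.69 and 22.2 CPM in WT (-3.01 ± 0.43, adjusted p = 0.00835). Fcgr1, the high-affinity receptor for IgG, had 0.291, 0.409 and 0.548 CPM in KO and 8.88, 2.05 and 4.45 CPM in WT (-3.58 ± 0.51, adjusted p = 0.00835). The groups did not overlap in any of these 3 genes, and WT replicate 2 was the lowest WT library each time. The Fc receptor genes Fcgr3 (-2.7) and Fcgr4 (-3.49), the oxidase gene Cybb (-2.64), Spi1 (-2.46) and the CD11b integrin gene Itgam (-2.34) were also called. Cd14 (-0.77, adjusted p = 0.0849) and Lyz2 (-1.54, adjusted p = 0.0504) were not.

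Recruited and neutrophil genes had the medians farthest from 0. Clec7a, the beta-glucan receptor dectin-1, had 0.970, 2.0 and 1.41 CPM in KO and 12, 5.14 and 9.38 CPM in WT (-2.58 ± 0.38, adjusted p = 0.00835). Clec4e had 0.194, 0 and 0.0391 CPM in KO and 15.3, 1.3 and 30.1 CPM in WT (-7.6 ± 1.26, adjusted p = 0.0111). Fpr2 had 0.0485, 0.0909 and 0.157 CPM in KO and 5.7, 1.0 and 5.94 CPM in WT (-5.29 ± 0.88, adjusted p = 0.0111). WT replicate 2 held the lowest WT value of each. Trem1, a DAP12-coupled amplifier of inflammation on neutrophils and monocytes (-4.98), and Acod1, the enzyme of itaconate synthesis (-7.42), were called as well. Csf3r had 1.07, 0.545 and 0.274 CPM in KO and 18.8, 1.92 and 29.9 CPM in WT (-4.74 ± 0.90, adjusted p = 0.0172), and Retnlg had 0.436, 0.0909 and 0.0391 CPM in KO and 19.4, 2.22 and 31.8 CPM in WT (-6.57 ± 1.41, adjusted p = 0.026). No KO library exceeded 1.07 CPM for either gene. Csf3 was not called (-3.9, adjusted p = 0.11), and nor were Ly6c2, Arg1, Ltf and Cd177.

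**Figure D2:**
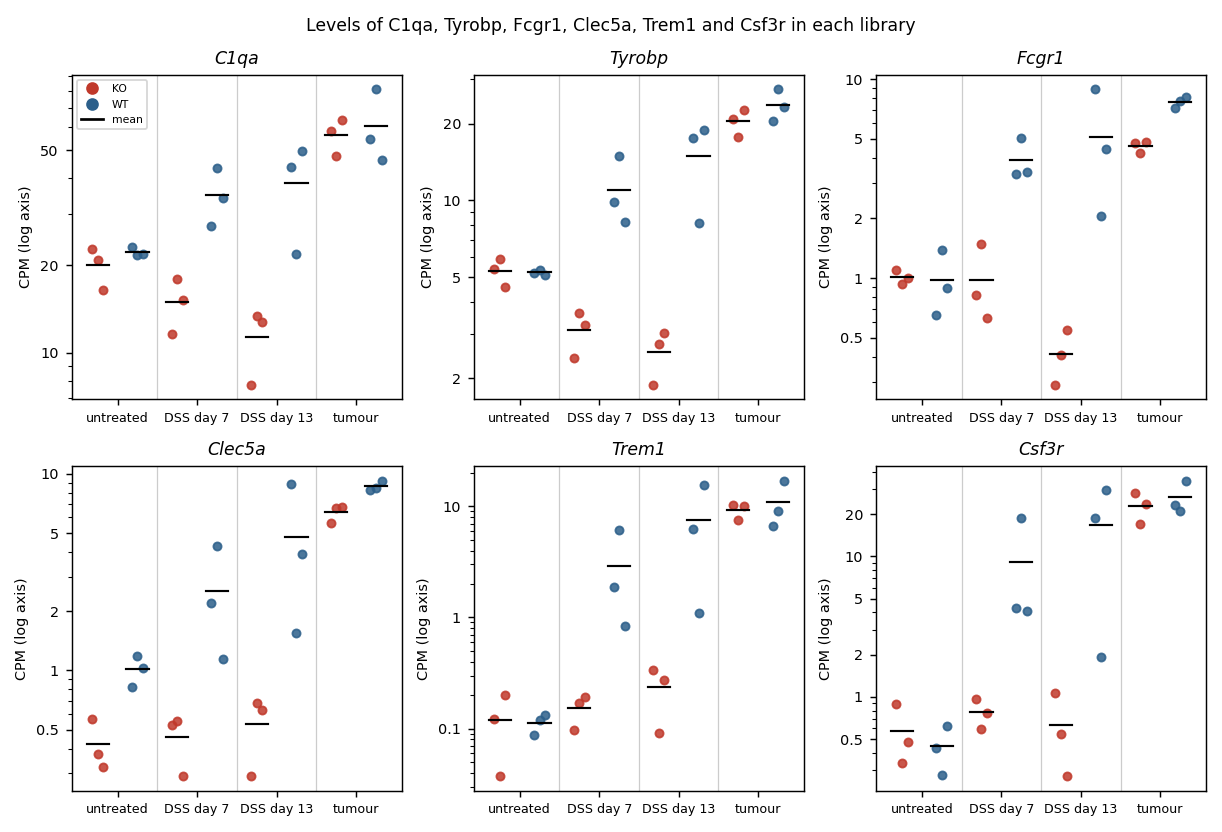
Levels in CPM (log axis) of C1qa, Tyrobp, Fcgr1, Clec5a, Trem1 and Csf3r in every library, with KO (red) left of WT (blue) in each condition and the group mean as a black line. At day 7 and day 13 the KO points lie below the WT points in all 6 genes. In tumours the points of KO and WT are nearer each other, although all KO points lie below all WT points for Fcgr1 and Clec5a.

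The day 13 count rested on single libraries. In edgeR, 33 genes were called without WT replicate 2 (7.43% of all genes), but 0, 13, 2, 18 and 1 without WT replicates 1 and 3 and KO replicates 1, 2 and 3 in turn, and 0 without the squamous-rich KO replicate 1 and WT replicate 3, a choice made after seeing the data. Apart from the refit without WT replicate 2, shares of all genes called are not given here, so these counts show only how far the calls moved. All KO mice were female and all WT mice male, so sex and genotype cannot be told apart at day 13, and a covariate of Y-linked expression left 0 calls with a median difference of -2.55 and 32 genes at p under 0.05 before adjustment. Markers of all leukocytes summed to 20.4 to 51.1 CPM in KO and 49.9 to 219.5 CPM in WT, with 1 of 3 genes called lower, and those of fibroblasts to 351 to 619.6 CPM and 924 to 2457 CPM, with 2 of 5 called lower. T cell markers summed to 4.07 to 5.01 CPM in KO and 3.55 to 16.4 CPM in WT and smooth muscle markers to 2953 to 5048 CPM in KO and 1825 to 3278 CPM in WT, with 0 of 5 called in each. None of these markers was at 0 in a group, and their part in the result was not tested.

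Averaged over untreated colon, day 7 and day 13, 28 of 39 genes were called lower in KO and 0 higher (3.88% of all genes were called lower). They were 9 of 11 tissue macrophage, 12 of 13 shared, 6 of 10 recruited and 1 of 5 neutrophil and growth factor genes, with a median of -1.38. Tyrobp fell by 1.45 ± 0.18 (adjusted p = 0.00384), Clec5a by 2.27 ± 0.35 (adjusted p = 0.0101), C1qa by 1.04 ± 0.16 (adjusted p = 0.0105) and Csf3r by 2.63 ± 0.51 (adjusted p = 0.0148). Csf3, Retnlg and Clec4e were not called here (adjusted p = 0.213, 0.299 and 0.199). The count was 0 without 4 colon libraries whose Illumina sample numbers repeat, 13 without the squamous-rich libraries, and 22 to 31 when each library was left out in turn. Shares of all genes called in these refits are not given here. In the same comparison 5 of 5 fibroblast markers (median -1.18), 2 of 3 markers of all leukocytes (median -1.33), 1 of 3 of endothelium (median -0.87) and 1 of 5 of dendritic cells (median -0.69) were called lower, and 0 of 5 each of T cell, B and plasma cell and smooth muscle markers were called. The part of these cells in the result was not tested.

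**Figure D3:**
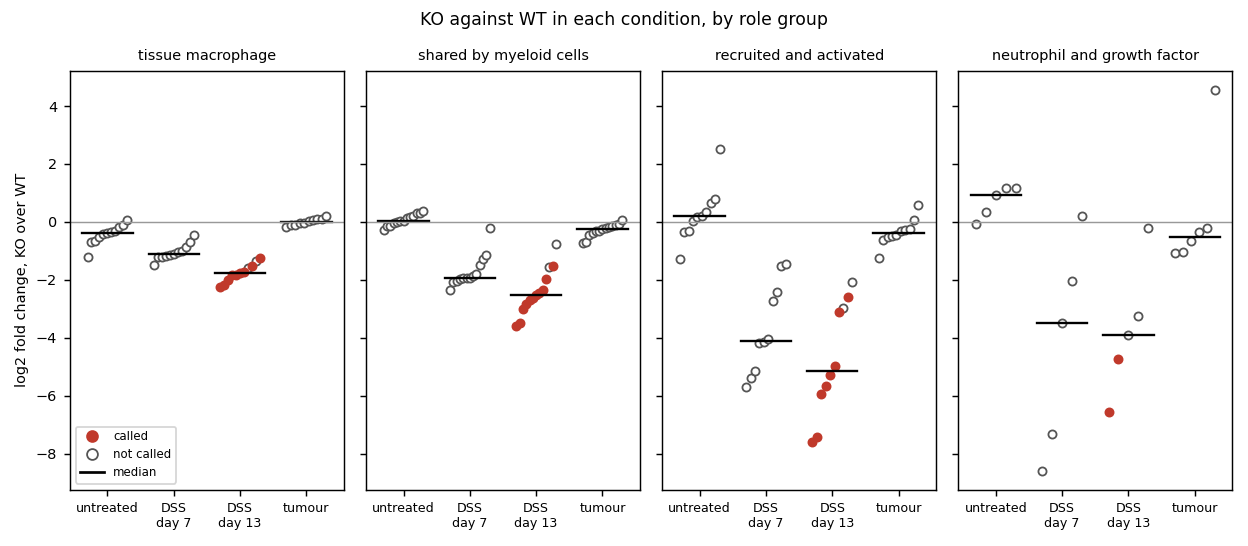
Log2 fold change of KO over WT for each tested gene, by role group, in untreated colon, at day 7, at day 13 and in tumours, where filled points passed an adjusted p of 0.05, open points did not, and the line is the median of the role group. The medians lie between -0.39 and 0.95 in untreated colon and between -0.51 and 0.01 in tumours, and at day 13 they run from -1.75 for tissue macrophage genes to -5.14 for recruited genes.

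The response to DSS was read within each genotype against untreated colon. These comparisons share libraries with those between the genotypes, so they restate the same values from the other side. In KO colon at day 7, 1 of 39 genes was called, Cd14, which was higher than without treatment (8.57% of all genes were called higher). Cd14 had 55.2, 57.7 and 73.9 CPM at day 7 and 34.3, 29.3 and 22.7 CPM without treatment, without overlap (1.12 ± 0.23, adjusted p = 0.00509), and the call ended without the 4 libraries of repeated sample number (smallest adjusted p = 0.0744). The median of the 39 genes was -0.13. Genes of the other role groups with the smallest p were C1qa (-0.42 ± 0.28, adjusted p = 0.361), Ly6c2, a surface protein of blood monocytes (-0.94 ± 0.69, adjusted p = 0.418), and Cd177 (1.51 ± 0.52, adjusted p = 0.0724), none of which was called.

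In WT colon at day 7, 20 of 39 genes were called, all higher than without treatment (8.52% of all genes were called higher and 7.77% lower). They were 1 of 11 tissue macrophage, 8 of 13 shared, 7 of 10 recruited and 4 of 5 neutrophil and growth factor genes, with medians of 0.59, 1.38, 4.24 and 4.83. The macrophage gene was Ms4a7, a membrane protein of macrophages, with 5.96, 8.7 and 11 CPM at day 7 and 4.9, 3.6 and 3.73 CPM without treatment (1.01 ± 0.29, adjusted p = 0.0283). Cd14 had 64.2, 61.3 and 95 CPM at day 7 and 22.2, 22.6 and 29.6 CPM without treatment (1.51 ± 0.23, adjusted p = 0.00148). Fcgr4, an activating IgG receptor, had 4.17, 4.67 and 4.39 CPM at day 7 and 0.693, 0.632 and 0.800 CPM without treatment (2.57 ± 0.53, adjusted p = 0.0059), and Fcer1g rose by 1.86 (adjusted p = 0.00824). The treated and untreated libraries did not overlap in any of these genes. Trem1 had 1.88, 6.08 and 0.835 CPM at day 7 and 0.0867, 0.119 and 0.133 CPM without treatment (4.56 ± 0.98, adjusted p = 0.00745), and Clec4d, a lectin that pairs with Mincle, rose by 5.39 (adjusted p = 0.00726). Clec4e and Retnlg had 1 count each in untreated WT colon, and their ratios were 415 (counting interval 73.9 to 16420.0) and 522 (93.3 to 20690.0). Csf3r rose by 4.28 ± 0.90 (adjusted p = 0.00674) and Cd177 by 2.27 ± 0.54 (adjusted p = 0.0119), from 3 libraries each that did not overlap. The count was 3 without the 4 libraries of repeated sample number, with a median of 1.02 against 1.38, and 12 without untreated WT replicate 1 or replicate 2. How many of all genes were called in these refits is not given here, so the counts show only how far the calls moved. All day 7 WT mice were female and only untreated replicate 3 was, so no test within sex had more than 1 untreated library.

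By day 13 no gene was called in KO colon against untreated KO colon (0.0276% of all genes were, 0.0221% higher). Before adjustment 18 genes reached p under 0.05, against 7.62% of all genes, and DESeq2 called 2, Adgre1 lower and Cd14 higher, against 0.668% of all genes. Medians were -0.89 for tissue macrophage, -0.76 for shared, 0.41 for recruited and 2.06 for neutrophil and growth factor genes. In 14 genes every day 13 library lay below every untreated library, against 8.44% of all genes, and in 3 above, against 7.49%. Adgre1 was such a gene, with 0.921, 2.0 and 0.782 CPM at day 13 and 4.29, 3.26 and 3.33 CPM without treatment (-1.54 ± 0.35, adjusted p = 0.223). Cd14 went the other way, with 56.4, 52.7 and 61.6 CPM at day 13 and 34.3, 29.3 and 22.7 CPM without treatment (0.99 ± 0.23, adjusted p = 0.223). Clec7a (-0.88 ± 0.37, adjusted p = 0.575) and Cd177 (1.78 ± 0.53, adjusted p = 0.41) were the other genes with the smallest p of their role group. The KO mice were all female at day 13 and all male without treatment, so sex and treatment cannot be told apart in KO.

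In WT colon at day 13, 23 of 39 genes were called, all higher than without treatment (3.21% of all genes were called higher and 1.03% lower). They were 0 of 11 tissue macrophage genes, 10 of 13 shared, 8 of 10 recruited and 5 of 5 neutrophil and growth factor genes, with medians of 0.52, 1.92, 5.86 and 7.15. Among the tissue macrophage genes, 2 reached p under 0.05 before adjustment and the smallest p belonged to Msr1 (1.26 ± 0.45, adjusted p = 0.116). Cd14 had 125, 68.1 and 100.5 CPM at day 13 and 22.2, 22.6 and 29.6 CPM without treatment (1.95 ± 0.23, adjusted p = 0.00435). Fcgr1 had 8.88, 2.05 and 4.45 CPM at day 13 and 0.650, 1.38 and 0.889 CPM without treatment (2.35 ± 0.47, adjusted p = 0.0175). Trem1 had 6.19, 1.09 and 15.5 CPM at day 13 and 0.0867, 0.119 and 0.133 CPM without treatment (5.98 ± 1.0, adjusted p = 0.00836). The day 13 libraries spread widely, replicate 2 lying lowest, and lay above all untreated ones in these genes. Csf3r rose by 5.21 ± 0.93 (adjusted p = 0.0103), Fcgr4 by 3.02 ± 0.53 (adjusted p = 0.0096), Fpr2 by 5.1 ± 0.86 (adjusted p = 0.00855) and Cd177 by 2.95 ± 0.55 (adjusted p = 0.0122). Clec4e and Retnlg, at 1 count each without treatment, had ratios of 1054 (counting interval 189 to 41680.0) and 1210.0 (217 to 47830.0). The count was 8, 28 and 14 without day 13 replicates 1, 2 and 3 in turn, and 1, 3 and 9 without untreated replicates 1, 2 and 3, where the last left males only. It was 1 with only these groups in the fit, and 14 without the squamous-rich libraries. Shares of all genes called in these refits are not given here, so the counts show only how far the calls moved.

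In some genes the libraries lay on opposite sides of untreated colon in the genotypes, although none of them was called in KO. At day 7 every KO library lay below every untreated KO library while every WT library lay above every untreated WT library for Tyrobp, Aif1, Itgax, Cybb and Plek, which encodes pleckstrin, 5 of 39 genes against 0.641% of all genes. At day 13 this held for Ms4a7, Fcgr1, Fcgr3, Fcer1g, Tyrobp and Aif1, 6 of 39 genes against 0.702% of all genes. The difference between the genotypes in the DSS response was tested as an interaction. At day 7 no gene was called (0% of all genes were), 19 reached p under 0.05 before adjustment (13.7% of all genes did), 7 were called in DESeq2, all lower (1.33% of all genes were called lower by it), and the median interaction was -1.78. The smallest adjusted p was that of Aif1 (-2.24 ± 0.44, adjusted p = 0.168), whose KO level was 0.818, 2.09 and 1.93 CPM at day 7 and 3.32, 2.84 and 2.84 CPM without treatment, against 6.01, 7.74 and 5.43 CPM and 2.3, 2.49 and 2.4 CPM in WT. At day 13 all 39 genes had an interaction below 0, with a median of -2.36, and 0 were called (0.011% of all genes were), although 30 reached p under 0.05 before adjustment (13.5% of all genes did) and 23 were called in DESeq2, all lower (2.46% of all genes were called lower by it). Tyrobp (-2.52 ± 0.43), Clec7a (-2.75 ± 0.52), Fcer1g (-3.14 ± 0.58) and Fcgr1 (-3.6 ± 0.69) each had an adjusted p of 0.0735. The day 7 count was 1 without untreated KO replicate 3, and the day 13 count was 20 without WT day 13 replicate 2 and 7 without untreated KO replicate 2. The share of all genes called in these refits is not given here, so the counts show only how far the calls moved.

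Between day 7 and day 13, 3 of 39 genes fell in KO colon, all of tissue macrophages. That is 7.69% of the 39 genes, near the 8.61% of all genes called lower (4.22% were called higher). Adgre1 had 0.921, 2.0 and 0.782 CPM at day 13 and 2.69, 4.51 and 2.8 CPM at day 7 (-1.43 ± 0.35, adjusted p = 0.0149). Ms4a7 had 1.55, 2.68 and 1.96 CPM at day 13 and 3.46, 6.0 and 4.3 CPM at day 7 (-1.15 ± 0.30, adjusted p = 0.0182). Mrc1 had 6.06, 7.31 and 6.77 CPM at day 13 and 10.1, 15.3 and 12.7 CPM at day 7 (-0.92 ± 0.28, adjusted p = 0.0461). In these 3 genes the days did not overlap. The calls ended without KO day 13 replicate 1 or 3 or KO day 7 replicate 2, with 0 genes each time, and 2 were called without any other library of the comparison, among them the male day 7 replicate 1. The fall did not extend to all macrophage genes. Of 12 other macrophage genes, a separate list, 2 were called higher in KO colon at day 13 and 0 lower (median -0.53). These 12 genes summed to 76.75, 86.63 and 97.85 CPM at day 7 and 117.5, 133.6 and 139.0 CPM at day 13 in KO. The sum was higher at day 13 although the median change by gene was below 0, so it does not stand for each gene. In WT colon 0 of 39 genes were called between these days (0.0608% of all genes were), 3 reached p under 0.05 before adjustment, and DESeq2 found 0. All WT mice were male at day 13 and female at day 7, so sex and day cannot be told apart there.

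Tumours held more phagocyte transcripts than untreated colon in both genotypes. In KO, 38 of 40 genes were called, 37 higher and 1 lower, against 26.4% of all genes higher and 23.5% lower. In WT, 36 of 40 were called, 35 higher and 1 lower, against 27.6% and 21.2% of all genes. All 13 shared genes rose in either genotype. Of the 11 tissue macrophage genes, 10 rose and 1 fell in KO, and 8 rose and 1 fell in WT. Of the 10 recruited genes 9 rose in each genotype, and of the 6 neutrophil and growth factor genes 5 rose in each. The genes called in both were 35, which is 92.1% of those called in KO and 97.2% of those called in WT. Ltf, Mrc1 and Trem2 were called in KO tumours only, and Cd177 in WT tumours only, without a difference between the genotypes having been called. Medians for tissue macrophage, shared, recruited and neutrophil and growth factor genes were 1.53, 1.99, 6.21 and 5.76 in KO and 1.34, 2.17, 6.62 and 5.9 in WT. With Fpr1, a formyl peptide receptor at 0 counts in untreated WT colon, at its lower bound, the WT median of the recruited genes was 6.2.

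Among the tissue macrophage genes Msr1 had 15.2, 12.4 and 20 CPM in KO tumours and 3.64, 3.03 and 1.76 CPM in untreated KO colon (2.5 ± 0.45, adjusted p = 0.000174), and C1qb had 55.9, 43.8 and 58.2 CPM and 20.1, 17.1 and 10.9 CPM (1.71 ± 0.31, adjusted p = 0.000224). In WT, C1qa had 54.5, 81.1 and 46.3 CPM in tumours and 23.2, 21.7 and 21.9 CPM in untreated colon (1.45 ± 0.28, adjusted p = 0.000381), and Msr1 rose by 2.23 ± 0.44 (adjusted p = 0.000423). Tumour and untreated libraries did not overlap in these genes. Cd163 was the gene that fell, with 0.101, 0.116 and 0.114 CPM in KO tumours and 2.51, 2.81 and 1.2 CPM in untreated KO colon (-4.24 ± 0.72, adjusted p = 0.000108). In WT it had 0.156, 0.0699 and 0.142 CPM in tumours and 5.72, 4.47 and 4.8 CPM in untreated colon (-5.3 ± 0.72, adjusted p = 1.27e-05). All 6 tumour libraries lay at or below 0.156 CPM of Cd163, under each of the 18 colon libraries. Of the shared genes, Tyrobp had 21, 17.7 and 22.7 CPM in KO tumours and 5.38, 5.87 and 4.57 CPM in untreated KO colon (1.95 ± 0.28, adjusted p = 2.21e-05), and in WT it rose by 2.18 ± 0.28 (adjusted p = 7.29e-06). Fcgr4 rose by 2.79 ± 0.48 in KO and 3.82 ± 0.50 in WT (adjusted p = 0.000117 and 8.37e-06), and Fcgr3 by 2.01 ± 0.34 in KO and 2.65 ± 0.35 in WT (adjusted p = 0.000122 and 1.02e-05).

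Clec7a had the smallest p of the 43 genes in tumours. It had 16.3, 23.9 and 25.1 CPM in KO tumours and 3.56, 2.62 and 1.96 CPM in untreated KO colon (3.0 ± 0.34, adjusted p = 2.39e-06), and 30.6, 33 and 36.7 CPM in WT tumours and 3.25, 1.62 and 2.22 CPM in untreated WT colon (3.82 ± 0.35, adjusted p = 3.31e-07). Clec5a rose by 3.91 ± 0.55 in KO (adjusted p = 2.11e-05), and Trem1 by 6.22 ± 0.93 in KO and 6.53 ± 0.94 in WT (adjusted p = 3.47e-05 and 2.28e-05). Csf3r had 28.3, 16.9 and 23.7 CPM in KO tumours and 0.890, 0.337 and 0.481 CPM in untreated KO colon (5.33 ± 0.83, adjusted p = 5.57e-05), and rose by 5.89 ± 0.86 in WT (adjusted p = 2.63e-05). Tumour and untreated libraries did not overlap in these genes. For genes at 1 to 3 counts in untreated colon the ratios were 238 for Retnlg (counting interval 81.3 to 1159) and 101 for Csf3 (17.8 to 4026) in KO, and 862 for Clec4e (154 to 34070.0), 819.6 for Retnlg (147 to 32410.0) and 82.5 for Csf2, which encodes GM-CSF (14.4 to 3291), in WT. Tumour and colon differ in muscle, with smooth muscle markers called lower for 5 of 5 genes in each genotype, and squamous markers were called higher for 5 of 5 in KO and 0 of 5 in WT. Mast cell markers were called higher for 5 of 5 in each genotype (medians 5.68 in KO and 4.68 in WT), fibroblast markers for 4 of 5 in KO and 2 of 5 in WT, and T cell markers for 0 of 5 in KO and 3 of 5 in WT. B and plasma cell markers were called lower for 2 of 5 in KO and 3 of 5 in WT, and epithelial markers for 4 of 6 in KO and 0 of 6 in WT. The part of this makeup in the result was not tested.

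KO and WT tumours were compared to ask whether the missing Axin1 alters the phagocyte genes in tumours. None of 39 genes was called (0% of all genes were), 5 reached p under 0.05 before adjustment, and DESeq2 called 1, Fcgr1 (adjusted p = 0.0321), against 0.128% of all genes. Axin1 itself was not called in this edgeR test (-1.60 ± 0.11, adjusted p = 0.0866). The absence of calls therefore does not show that the phagocyte genes are unaltered in KO tumours. The median was -0.21, with 0.01 for tissue macrophage, -0.23 for shared, -0.38 for recruited and -0.51 for neutrophil and growth factor genes. Fcgr1 had 4.77, 4.25 and 4.84 CPM in KO tumours and 7.14, 7.79 and 8.11 CPM in WT tumours (-0.73 ± 0.16, adjusted p = 0.942). Clec7a had 16.3, 23.9 and 25.1 CPM in KO tumours and 30.6, 33 and 36.7 CPM in WT tumours (-0.62 ± 0.18, adjusted p = 0.942). All KO tumours were below all WT tumours for these and for Fcgr3, Fcgr4, Plek and Clec5a, 6 of 39 genes against 5.07% of all genes. Csf1r (-0.19 ± 0.28, adjusted p = 0.96) and Ltf (4.57 ± 1.96, adjusted p = 0.942) had the smallest p of their role groups, and the Ltf value rested on KO replicate 2 and was -0.31 without it. The tumour interaction, which sets the step from untreated colon to tumour in KO against that in WT, had 0 calls in edgeR and DESeq2, and 0 genes reached p under 0.05 before adjustment (0% of all genes were called). Its smallest adjusted p was that of Clec7a and Cd177 (0.632 each).

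Summed levels set the tissue macrophage genes against the recruited genes. The 11 tissue macrophage genes summed to 75.6, 111 and 118 CPM in untreated KO colon and 117, 131 and 145 CPM in untreated WT colon (lowest, middle and highest library). They summed to 68.5, 84.7 and 109.5 CPM in KO and 148, 183 and 247 CPM in WT at day 7, and to 38.4, 57.6 and 68.7 CPM in KO and 109.5, 213 and 235 CPM in WT at day 13. For these 11 genes the KO groups lay below the WT groups without overlap on both days, and in untreated colon they overlapped. In their sum, the 12 other macrophage genes, a separate list, did so at day 7 only. They summed to 76.75, 86.63 and 97.85 CPM in KO and 120.3, 120.4 and 176.3 CPM in WT at day 7. At day 13 the genotypes overlapped, with 117.5, 133.6 and 139.0 CPM in KO and 110.7, 112.2 and 195.8 CPM in WT. By gene, the median difference of these 12 between KO and WT was -0.87 at day 7 and -1.46 at day 13, with 0 called on either day. The overlap of the sums at day 13 therefore does not describe the single genes. In tumours the sum of the 11 tissue macrophage genes was 236, 304 and 344 CPM in KO and 240.4, 267 and 416 CPM in WT. The 9 recruited genes other than Arg1 summed to 4.49, 5.31 and 9.5 CPM in untreated KO colon and 4.03, 7.11 and 10.6 CPM in untreated WT colon. They had 4.94, 5.12 and 5.39 CPM in KO and 16.4, 29.7 and 60.1 CPM in WT at day 7. At day 13 they had 3.01, 3.91 and 4.62 CPM in KO and 14, 90.5 and 154 CPM in WT. At both times KO colon lay within or below the range of untreated KO colon. With Arg1 included the sum was 4.27, 4.66 and 57.8 CPM in KO colon at day 13 and 5.58, 5.93 and 9.91 CPM in untreated KO colon, and KO day 13 replicate 1 was the library above that range. In tumours the 9 genes other than Arg1 had 66.1, 71.7 and 86.6 CPM in KO and 87.6, 96.4 and 154 CPM in WT.

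The recruited sum as a percentage of the macrophage sum was 4.77, 5.93 and 8.03% in untreated KO colon and 3.08, 4.9 and 9.06% in untreated WT colon. It was 4.51, 6.05 and 7.87% in KO and 8.97, 20.1 and 24.3% in WT at day 7, and 5.68, 7.84 and 8.01% in KO and 12.8, 42.5 and 65.6% in WT at day 13. In tumours it was 23.6, 25.2 and 28% in KO and 21.1, 36.1 and 64.3% in WT, above every library of KO colon. In untreated KO colon Ly6c2 had a mean of 2.79 CPM and Clec7a one of 2.71 CPM, a large part of the low recruited sum. Reads of Ly6c2 were shared with other genes, so the low percentages are uncertain and need not reflect recruited cells. The 3 chains of C1q kept a narrow proportion in TPM. C1qa made up 35.5% to 44.5% of their sum over the 24 libraries, C1qb 25.7% to 34.8% and C1qc 27% to 35.1%.

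**Figure D4:**
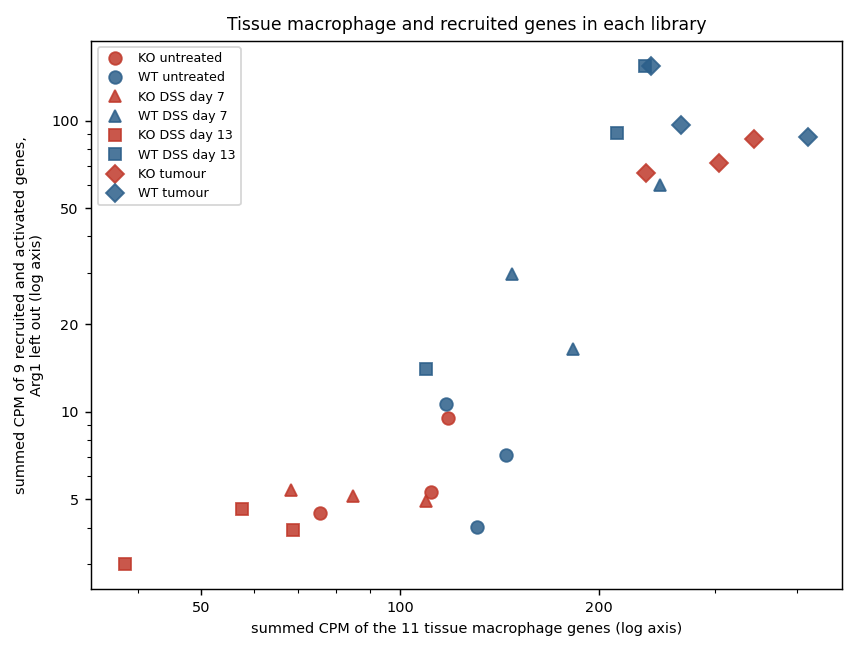
Summed CPM of the 9 recruited genes other than Arg1 (vertical, log axis) against the summed CPM of the 11 tissue macrophage genes (horizontal, log axis), with 1 point per library, coloured by genotype and shaped by condition. KO colon of all 3 conditions stays at or below 9.5 CPM of these 9 genes, WT colon after DSS spreads from 14 to 154 CPM, and tumours of both genotypes lie at the upper right.

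A few genes did not follow the rest. Cd14 was higher after DSS in both genotypes, as given above, and its difference between KO and WT was -0.21 at day 7 and -0.77 at day 13, neither called. Cd177 had 234, 197 and 578 CPM in KO and 301, 157 and 447 CPM in WT at day 7, and 317, 439.7 and 459.7 CPM in KO and 563, 486 and 382 CPM in WT at day 13, so that the genotypes overlapped at day 7 and differed by -0.22 ± 0.51 at day 13 (adjusted p = 0.865). Untreated KO colon held at least 68.2 CPM of Cd177 where Csf3r was at most 0.89 CPM and Retnlg at most 0.0801 CPM. Ly6c2 had 0.533, 0.772 and 1.99 CPM in KO and 8.97, 2.17 and 3.19 CPM in WT at day 13 and was not called in any of the 16 comparisons. Its counts were not whole in all libraries, so reads were shared with other genes, and near-identical Ly6 genes make it uncertain. Counts were also not whole in 100% of the libraries for Lyz2 and Csf1r and in 79.2% for Fcgr3.

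Arg1, the arginase of activated macrophages, and Ltf were each dominated by single libraries in colon. Arg1 had 54.7, 0.363 and 0.0391 CPM in KO and 3.45, 1.21 and 422 CPM in WT at day 13, and Ltf had 188, 1.64 and 1.99 CPM in KO and 13.2, 1.21 and 1792 CPM in WT. The high libraries, KO replicate 1 and WT replicate 3, were those high in squamous keratins, and the high Ltf library in tumours, KO replicate 2 at 556 CPM, was the third. Without the squamous-rich libraries the change of Arg1 in KO between day 7 and day 13 was -0.73 in place of 5.79, that of Ltf in KO was -0.55 in place of 4.58, and that of Ltf in WT was -0.65 in place of 5.77, none of them called. In tumours Arg1 had 32.5, 92 and 128 CPM in KO and 39.6, 74.3 and 54.1 CPM in WT, and rose against untreated colon in both genotypes.

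The growth factor genes Csf3 and Csf2 were low throughout. Csf3 had 0.485, 0.0454 and 0.0391 CPM in KO and 2.69, 0.418 and 5.36 CPM in WT at day 13, and 0.642, 1.35 and 2.06 CPM in KO tumours and 1.13, 1.96 and 5.35 CPM in WT tumours. Csf2 stayed at or below 0.314 CPM in every colon library and had 0.439, 0.387 and 0.876 CPM in KO tumours and 1.05, 0.314 and 2.12 CPM in WT tumours. KO and WT tumours overlapped in both genes.

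**Figure D5:**
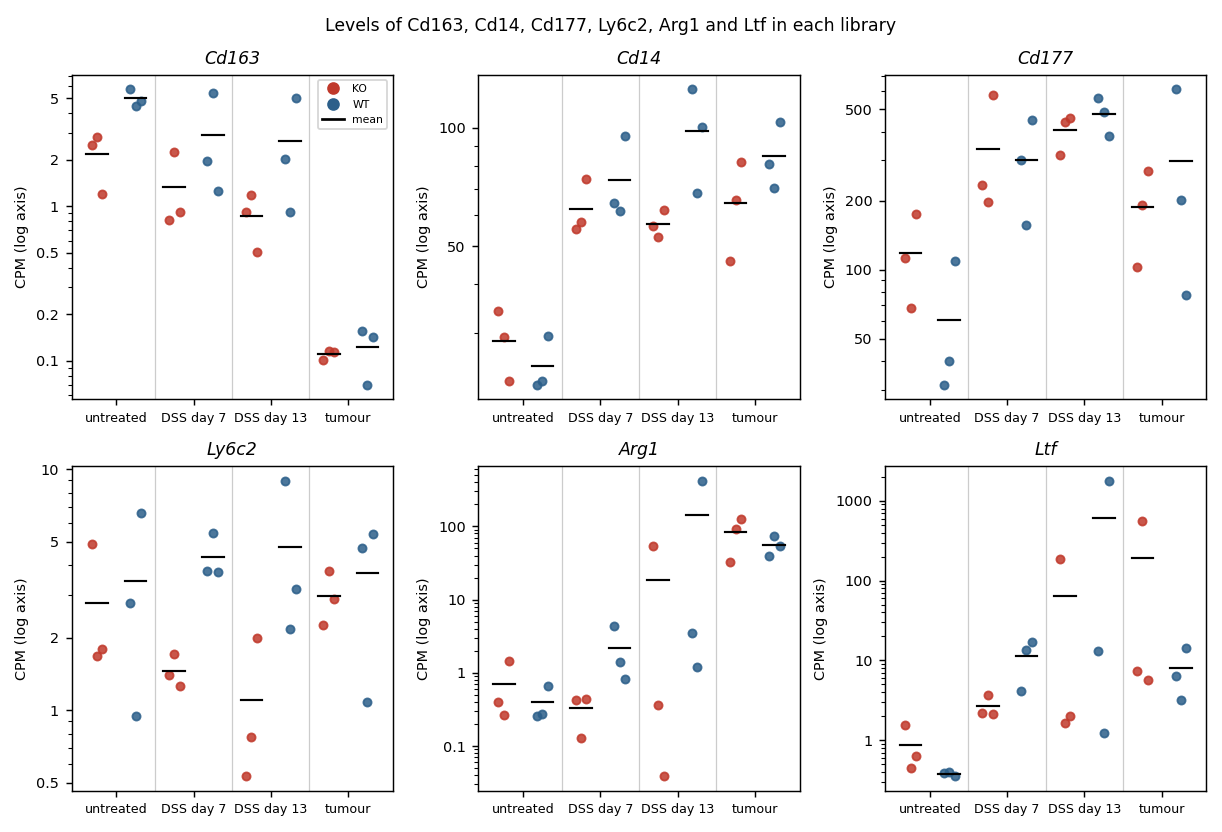
Levels in CPM (log axis) of Cd163, Cd14, Cd177, Ly6c2, Arg1 and Ltf in every library, with KO (red) left of WT (blue) in each condition and the group mean as a black line. Cd163 falls to 0.156 CPM or less in all 6 tumours, Cd14 is above untreated colon after DSS in both genotypes, and Arg1 and Ltf at day 13 are set by 1 library of each genotype.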

How the data were processed

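The submitters' processing notes name STAR 2.7.6a, RSEM 1.3.1 and the build GRCm38, and the labels' protocols name Trizol and Illumina libraries. The annotation release and strand setting were not stated there. The authors deposited, for each library, 55487 genes with expected counts and TPM by RSEM, as the file headers show. Between 11.0% and 12.4% of the listed expected counts per library were not whole, since RSEM shares reads between genes. Symbols were found for 55227 identifiers in GENCODE M21, and the promoter letters are from RefSeq (GRCm38.p6).

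Expected counts were rounded and tested with edgeR 4.0.16 in R 4.3.3 (quasi-likelihood F test, robust, TMM, minimum count 10 and minimum total 15, Benjamini-Hochberg threshold 0.05). Colon comparisons used 18 libraries in 1 fit of 18102 genes, without Camp, Csf2, Elane and Mpo. The tumour comparison used 6 libraries (17245 genes, without Camp, Cd163, Elane and Mpo), and tumour against colon used 24 (19056 genes, without Camp, Elane and Mpo). TPM as deposited served only for levels between genes. The scripts were tested on simulated data. Replicates were not copies, with a chi-square per gene of 14.8 to 181.2 between libraries of a group. Untreated KO replicates 1 and 2 differed least of all pairs (14.8), and replicate 3 differed from them most (161.6 and 181.2). That group is the reference of the KO comparisons against untreated colon. The labels do not number the replicates, so no pairing was used. Intervals (95%) and floors (3 counts) cover counting error only. Antisense and overlapping genes cannot be told apart without strand, which touches Csf1r, Itgam, Plek, Fpr2 and Trem1.

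The 43 genes, their role groups and all lists were chosen with earlier results of these data known. Full statistics are given for up to 3 called genes per role group with the smallest p, or for the gene with the smallest p where none was called. Alternatives were DESeq2 1.42.0, RLE size factors, no filter, Y-linked expression as a covariate (prior count 2), a fit of only the groups compared, omission of 4 colon libraries with repeated Illumina sample numbers, and omission of single libraries.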

Additional observations from a re-analysis of the deposited data

How the results depend on the processing

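The counts of members called that moved by more than 1.5 times are given here. For most of these refits the share of all genes called is not given. The counts show how far the calls moved, and not whether the members moved more than other genes. With DESeq2 they were 30 for KO against WT at day 7, 1 in tumours, 3 for day 7 against untreated KO colon, 2 for day 13 against untreated KO colon, and 7 and 23 for the interactions at day 7 and day 13. With only the groups compared in the fit they were 0 for KO against WT at day 13, 1 for day 13 against untreated WT colon and 5 for day 13 against day 7 in KO. Without the 4 libraries of repeated sample number they were 0 for the mean over colon conditions, 0 and 3 for day 7 against untreated colon in KO and WT, 1 for day 13 against untreated WT colon, and 0 for day 13 against day 7 in KO. Without the 3 libraries high in squamous keratins, an alternative chosen after seeing the data, they were 0 for KO against WT at day 13, 13 for the mean, 14 for day 13 against untreated WT colon and 0 for day 13 against day 7 in KO. The covariate of Y-linked expression left 0 for KO against WT at day 13, with a median of -2.55 against -2.53 without it. Leaving out each library in turn gave 0 to 24 for KO against WT at day 7, 0 to 33 at day 13, 12 to 19 for day 7 and 1 to 28 for day 13 against untreated WT colon, 0 to 2 for day 13 against day 7 in KO, and 0 to 1 and 0 to 20 for the interactions at day 7 and day 13. The cause of these shifts was not tested. RLE size factors and the absence of a filter kept every count within 1.5 times of its value. Fold changes of named genes turned round only where they were not called. Csf1r between the tumours ran from -0.419 to 0.064 with each library left out, was 0.021 without KO tumour replicate 2 and 0.021 without the squamous-rich libraries. Ltf between the tumours ran from -0.306, without KO tumour replicate 2, to 5.31, and was -0.306 without the squamous-rich libraries. Between day 13 and day 7, Arg1 in KO ran from -0.749 (without KO day 13 replicate 1) to 6.38, Ltf in KO from -0.559 (likewise) to 5.15 and Ltf in WT from -0.649 (without WT day 13 replicate 3) to 6.35, and without the squamous-rich libraries they were -0.728, -0.549 and -0.649. Among named genes 1269 results kept their side of the threshold, 154 lost the call, 33 gained it and 11 turned round. No paired analysis was possible because the replicate numbers were given in accession order and the labels carry none. Genes under about 1 CPM, such as Csf2, Csf3 and Fpr1, rest on few counts.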

Other observations

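Other genes of these cells, listed apart from the 43, were read in the same fits. Of 14 other monocyte and neutrophil genes, 11 fell in KO against WT colon at day 13 (1.86% of all genes were called lower), with a median of -5.49. None of the 14 was called between untreated KO and WT colon (0.011% of all genes were) or between KO and WT tumours (0% of all genes were). The 11 genes included the cytokine gene Il1b (-6.23 ± 0.93, adjusted p = 0.00835), Ccr2, the chemokine receptor of blood monocytes (-2.87 ± 0.49, adjusted p = 0.0133), and Hdc, the histidine decarboxylase of neutrophils and mast cells (-6.06 ± 1.21, adjusted p = 0.0201). Of these 14 genes 12 rose in WT colon at day 7 and at day 13 against untreated WT colon (8.52% and 3.21% of all genes were called higher). None was called in KO colon at either day, where 12.6% and 0.0276% of all genes were called. In tumours of each genotype 12 rose (26.4% of all genes in KO and 27.6% in WT). At day 7 none of the 14 was called between KO and WT (median -3.53), and 0.00552% of all genes were. Of 12 other macrophage genes, none was called between KO and WT at day 13 (median -1.46), and 3 fell over the mean of colon conditions, Siglec1, the sialoadhesin of macrophages (-1.39 ± 0.32), the scavenger receptor gene Stab1 (-1.09 ± 0.25) and the chemokine gene Pf4 (-0.85 ± 0.20).

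Macrophage genes outside the 43 were called in both directions in tumours. In KO tumours against untreated KO colon 4 of 12 rose and 2 fell (26.4% and 23.5% of all genes), and in WT 2 rose and 2 fell (27.6% and 21.2% of all genes). Mertk, a receptor for dying cells, fell by 2.79 ± 0.39 in KO and by 2.24 ± 0.39 in WT (adjusted p = 2.12e-05 and 0.000122), and the folate receptor gene Folr2 fell by 4.14 ± 0.77 in WT (adjusted p = 0.000266), with 0, 0.349 and 0.142 CPM in WT tumours and 4.25, 3.2 and 1.6 CPM in untreated WT colon. Csf1, the growth factor of macrophages, rose by 1.85 ± 0.34 in KO tumours and by 1.41 ± 0.33 in WT tumours (adjusted p = 0.000224 and 0.00195). Csf2rb, the shared chain of the GM-CSF receptor, fell in KO against WT colon at day 13 (-2.73 ± 0.59, adjusted p = 0.0276), with 2.52, 5.95 and 5.16 CPM in KO and 43.6, 7.11 and 40.7 CPM in WT.

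Ly6g, whose protein is the usual surface marker of mouse neutrophils, did not follow the neutrophil receptor gene Cxcr2 in untreated colon. Ly6g had 131, 116 and 4.65 CPM in untreated KO colon and 157, 168 and 106 CPM in untreated WT colon, while Cxcr2 had 0 counts in all 6 libraries. In tumours Ly6g had 13.7, 48.4 and 64.2 CPM in KO and 71.1, 66.7 and 50.6 CPM in WT, and Cxcr2 had 8.55, 5.33 and 8.46 CPM in KO and 11.7, 8.77 and 12.9 CPM in WT. Whether reads of other genes, such as related Ly6 genes, are counted as Ly6g was not tested, so its level is uncertain. Ly6g was named after its values were seen.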
